A study of Danio rerio with 25 samples.

Results

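The miR-23/24/27 miRNAs were followed over 5 ages in the brain of male zebrafish. The members were taken by name from the deposited table of miRNA counts: dre-mir-23a, dre-mir-23b, dre-mir-24, dre-mir-27a, dre-mir-27b, dre-mir-27c, dre-mir-27d and dre-mir-27e. Numbered copies of a hairpin were summed under 1 name, so that 16 of the 346 hairpin rows gave 8 of the 217 miRNA names. All 8 members were among the 197 miRNAs that had enough counts to be tested, and the lowest count of a member in a library was 373. Small RNA libraries had been made from brains at 6, 12, 24, 36 and 42 months, 5 libraries for each age and 25 in all, to compare miRNA levels between the ages. All fish were males of the strain given as AB JxTü. The labels give no transgene for the 6-month and 24-month fish. They give Tg(flk:mCherry) for the 12-month fish, Tg(pu.1:GFP) for the 36-month fish and Tg(wt1a:GFP) for the 42-month fish. The flk promoter is used to mark blood vessel endothelium, pu.1 to mark myeloid cells and wt1a to mark the developing kidney. Age and line therefore cannot be told apart at 12, 36 and 42 months, while both the 24-month and the 6-month fish are free of a named transgene.

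miRNAs are short RNAs cut from hairpin precursors, and they lower the output of mRNAs that pair with their seed, the bases near the 5′ end. miR-23, miR-24 and miR-27 have different seeds but are made from neighbouring hairpins that can be transcribed as 1 precursor, an arrangement kept from fish to mammals. In mice, miR-23 and miR-27 are known for promoting the growth of blood vessels, where they repress inhibitors of vessel sprouting such as Sprouty2 and Sema6A. miR-24 is known in mice for restraining the survival of endothelial cells, and in human cells for slowing the cell cycle. miR-27 is also known in mammals as a brake on fat cell differentiation through PPARγ, and miR-23a for repressing lamin B1 in the myelin-forming oligodendrocytes of mice.

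The 16 hairpin rows could all be matched by name to the zebrafish genes of RefSeq assembly GRCz12tu, which was used here for names and neighbourhood only. In that assembly the hairpins lie in 5 separate clusters of 3 loci, each with 1 miR-27 locus. dre-mir-27b lies with copy 24-3 inside the protein-coding gene aopep. dre-mir-27d lies with dre-mir-23b and copy 24-1 inside apba1b. dre-mir-27a lies with copy 23a-3, and dre-mir-27e with copies 23a-1 and 24-4. The dre-mir-27c locus lies beside a mir-23a locus that carries the names of copies 23a-2 and 23a-4 and a mir-24 locus that carries the names of copies 24-2 and 24-5. The loci mir24b and mir23b-2 of these clusters matched no row and were not analysed here. A count covers both arms of a hairpin. The mature miR-27 forms differ little in sequence, and so do the copies of a name, so that reads may be shared between them. How such reads were assigned is not given in the sources used here.

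Total counts per library lay between 3983783 and 20924118. Neurons are the defining cells of brain, and the summed level of 6 neuron miRNAs lay between 110095 and 174363 CPM (counts scaled to a common library size with TMM factors) over all libraries. Several libraries stood apart in miRNAs of epithelium (the 6 miRNAs of the miR-200 family) or skin (dre-mir-203a, dre-mir-203b and dre-mir-205). Summed epithelial miRNAs reached 8628 CPM in replicate 1 and 7521 CPM in replicate 5 at 6 months, 2843 CPM in replicate 4 at 12 months and 8463 CPM in replicate 1 at 36 months. Summed skin miRNAs reached 3432 CPM in replicate 2 at 6 months and 2016, 5084 and 2148 CPM in replicates 3, 4 and 5 at 12 months. These 7 libraries are called epithelium-rich below, and results that change without them are given both ways. In the other 18 libraries both sums were under 2000 CPM of the library total. Without the 7 libraries, 2 remained at 6 months, 2 at 12 months and 4 at 36 months.

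The 8 members together held between 2.30% and 3.47% of all counts in a library, with a median of 2.84%. dre-mir-27b made up most of this: it averaged 24489 CPM over all libraries and ranked 8th of the 197 tested miRNAs by mean CPM. dre-mir-27d followed at rank 58, dre-mir-27c at 86, dre-mir-23b at 91, dre-mir-27e at 116, dre-mir-24 at 123, dre-mir-27a at 140 and dre-mir-23a at 144. Read counts of different miRNAs also depend on how well each is captured in the library, so that these ranks describe counts and not molecules. Within the miR-27 names, dre-mir-27b held on average between 88.7% and 91.2% of counts at each age. Within the miR-23 names, dre-mir-23b held between 83.5% and 88.5%. The summed miR-27 level was therefore mainly that of dre-mir-27b, at 22401 CPM at 6 months, 30792 CPM at 12, 27188 CPM at 24, 28754 CPM at 36 and 26910 CPM at 42 months. Summed miR-23 averaged 697, 761, 754, 696 and 769.7 CPM at the same ages.

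The members did not move as a block. 4 of the 8, dre-mir-27a, dre-mir-27b, dre-mir-27c and dre-mir-27d, were called for any difference between the 5 ages, meaning an adjusted p under 0.05 in edgeR's quasi-likelihood test. The background was 47.7% of the 197 miRNAs, so that the members' share was near it. At 12 against 6 months 2 members, dre-mir-27b and dre-mir-27d, were called higher and none lower, where 7.11% of all tested miRNAs were called higher. At 24 against 6 months the same pair was called higher, against 13.7% of all, and dre-mir-27c was called lower, against 18.3% of all. At 36 against 6 months dre-mir-27b and dre-mir-27d were again called higher, against 8.12% of all, and at 42 against 6 months dre-mir-27b was called higher, against 14.2% of all. These comparisons share the 6-month libraries, whose titles each hold 2 numbers where all other titles hold 1. What this stands for is not stated, and it cannot be told apart from the 6-month age. For the linear trend 1 member, dre-mir-27a, was called lower with age, against 13.7% of all. Relative to 12 months, dre-mir-27c was called lower at 24 months, against 6.09% of all, and dre-mir-27a and dre-mir-27d were called lower at 42 months, against 10.7% of all. At 36 against 12 months no member was called in edgeR's quasi-likelihood test or in the DESeq2 and limma-voom alternatives, and 1 member had an unadjusted p under 0.05. In that comparison 4.06% of all miRNAs were called. The median log2 change of the 8 members was 0.18 at 12 against 6 months, where that of all 197 miRNAs was 0.02. It was -0.27 at 24 against 12 months and at 42 against 12 months, where the medians of all miRNAs were 0.01 and -0.04.

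**Figure D1:**
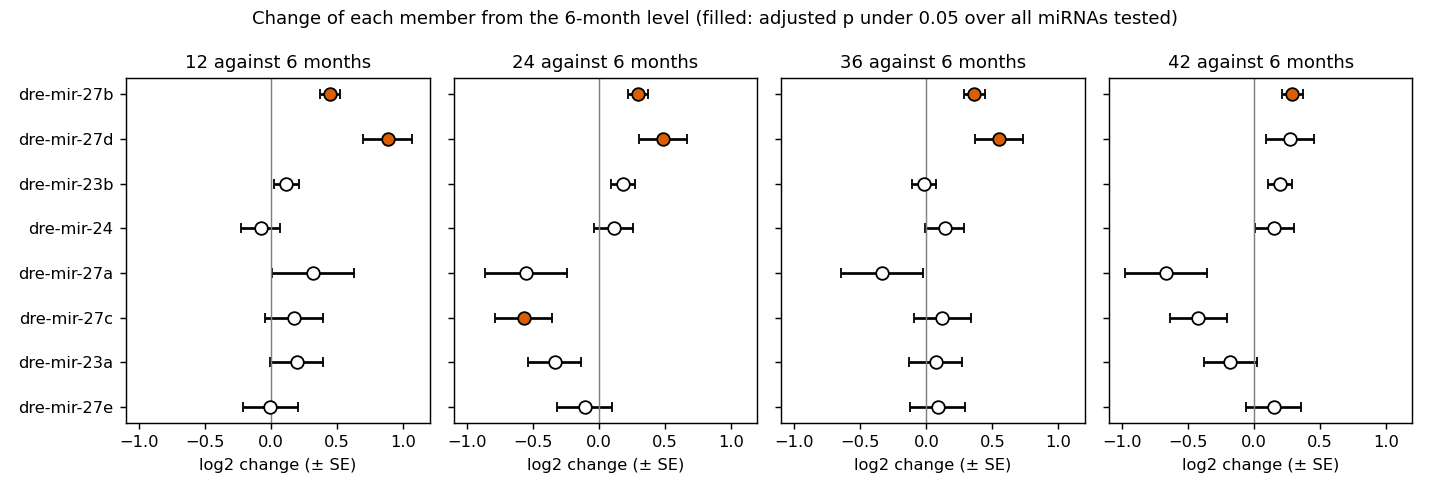
Log2 changes of the 8 members at 12, 24, 36 and 42 months against the same 5 libraries of 6 months, with standard errors, from edgeR's fit over all 25 libraries, filled where called. dre-mir-27b is called higher at each of the 4 ages, and dre-mir-27d has the largest rise of the 8 members at 12 months, 0.88.

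dre-mir-27b, the abundant form, was higher in the brain at all 4 later ages than at 6 months. Its levels at 6 months were 18946, 21103, 20267, 20837 and 19143 CPM in replicates 1 to 5. At 12 months they were 30731, 29039.8, 25862, 24889 and 26196 CPM, and at 24 months 24967, 26935, 24259, 22758 and 24514 CPM. At 36 months they were 21059.9, 23503, 29159.8, 27259 and 28122 CPM, and at 42 months 24621, 23357, 25969.8, 25252 and 23466 CPM. Every library of 12, 24 and 42 months lay above every library of 6 months, while replicate 1 of 36 months lay among the 6-month libraries. The means were 20059.5 ± 977 CPM at 6 months, 27344 ± 2444 CPM at 12, 24687 ± 1505 CPM at 24, 25821 ± 3411 CPM at 36 and 24533 ± 1130.3 CPM at 42 months (SD, n = 5 each). Ordered by mean, 12 months stood first, followed by 36, 24, 42 and 6 months. Neighbours in this order had overlapping ranges except for the last step, where 42 months lay wholly above 6 months.

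The level of dre-mir-27b at 12 months was 1.36-fold that at 6 months, a log2 change of 0.45 (SE 0.08, adjusted p = 5.30e-04, edgeR's quasi-likelihood test) with the older library higher in 25 of 25 pairs. The log2 change was 0.30 at 24 months (SE 0.08, adjusted p = 0.00875), 0.36 at 36 months (SE 0.08, adjusted p = 0.00146, 24 of 25 pairs) and 0.29 at 42 months (SE 0.08, adjusted p = 0.00909). No steady trend with age was called for it. Its slope was 0.05 log2 units per year (SE 0.03, adjusted p = 0.279). Without the 12-month libraries the slope was 0.11 (adjusted p = 0.00380). Without the 6-month libraries it was -0.04 (adjusted p = 0.445), so that no rise remained over the later ages. Relative to 12 months, the later ages were lower by amounts that did not pass the test, with log2 changes of -0.15 at 24 months (adjusted p = 0.210), -0.08 at 36 months (adjusted p = 0.604) and -0.16 at 42 months (adjusted p = 0.177). With library totals in place of TMM factors it was called lower at 24 than at 12 months, at -0.28 (adjusted p = 0.0207). Each of the 4 calls against 6 months held when any single library was left out. Without the 7 epithelium-rich libraries the changes against 6 months were 0.53 at 12 months (adjusted p = 0.00591), 0.25 at 24 months (adjusted p = 0.0650), 0.41 at 36 months (adjusted p = 0.00272) and 0.28 at 42 months (adjusted p = 0.0310), so that the call at 24 months was lost. With library totals the changes against 6 months were 0.40, 0.13, 0.27 and 0.20 at 12, 24, 36 and 42 months, and the call at 24 months was also lost (adjusted p = 0.219).

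dre-mir-27d, the next most abundant member, showed the larger rise at 12 months. Its levels were 1158, 1309, 1206, 1162 and 979 CPM at 6 months and 1778, 2717, 1870.0, 1852 and 2494 CPM at 12 months. They were 1783, 1789.7, 1369, 1729 and 1491 CPM at 24 months, 847, 1793, 1909.8, 1992 and 1952 CPM at 36 months and 1248, 1259, 1873, 1322 and 1337 CPM at 42 months. The 12-month and 24-month libraries all lay above the 6-month ones. At 36 months 4 libraries stood close together and replicate 1 lay below every 6-month library, and at 42 months replicate 3 stood above the other libraries of its age. By mean the order was 12 months (2142 ± 432 CPM), 36 months (1699 ± 482 CPM), 24 months (1632 ± 191 CPM), 42 months (1408 ± 263 CPM) and 6 months (1163 ± 119 CPM; SD, n = 5 each), with overlapping ranges between all neighbours in that order.

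At 12 months dre-mir-27d was 1.84-fold the 6-month level, a log2 change of 0.88 (SE 0.18, adjusted p = 0.00268, edgeR's quasi-likelihood test), and it was higher in 25 of 25 pairs. At 24 months the change was 0.49 (SE 0.18, adjusted p = 0.0468, 25 of 25 pairs), at 36 months 0.55 (SE 0.18, adjusted p = 0.0427, 20 of 25 pairs) and at 42 months 0.28 (SE 0.18, adjusted p = 0.243). dre-mir-27d was lower at 42 than at 12 months, by a log2 change of -0.61 (SE 0.18, adjusted p = 0.0287, higher in 3 of 25 pairs). At 24 and 36 against 12 months its changes were -0.39 (adjusted p = 0.153) and -0.33 (adjusted p = 0.310). The rise at 12 against 6 months held without any single library and was 0.92 without the epithelium-rich libraries (adjusted p = 0.0214). The other calls were near the threshold. At 24 against 6 months, leaving out any 1 library of those ages ended the call, as did 7 libraries of other ages, with changes of 0.43 to 0.55 and adjusted p up to 0.110. At 36 against 6 months the call ended in 14 of 25 cases, among them replicates 1, 3, 4 and 5 of 6 months and 2, 3, 4 and 5 of 36 months (adjusted p up to 0.111). Without replicate 1 of 36 months, the lowest of its age, the change was 0.72 (adjusted p = 5.48e-04). At 42 against 12 months the call ended without replicate 2 or 5 of 12 months or replicate 1, 2, 4 or 5 of 42 months (adjusted p up to 0.0838). With library totals in place of TMM factors the changes at 24 and 36 against 6 months were 0.32 (adjusted p = 0.218) and 0.45 (adjusted p = 0.0998). Without the epithelium-rich libraries the change was 0.45 at 24 against 6 months (adjusted p = 0.140), 0.71 at 36 against 6 months (adjusted p = 0.0175) and -0.65 at 42 against 12 months (adjusted p = 0.0679). From the youngest to the oldest age, dre-mir-27d made up 5.19% ± 0.374, 6.97% ± 1.35, 6.01% ± 0.650, 5.82% ± 1.26 and 5.21% ± 0.733 of miR-27 counts (SD, n = 5 each), with the largest mean share at 12 months.

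**Figure D2:**
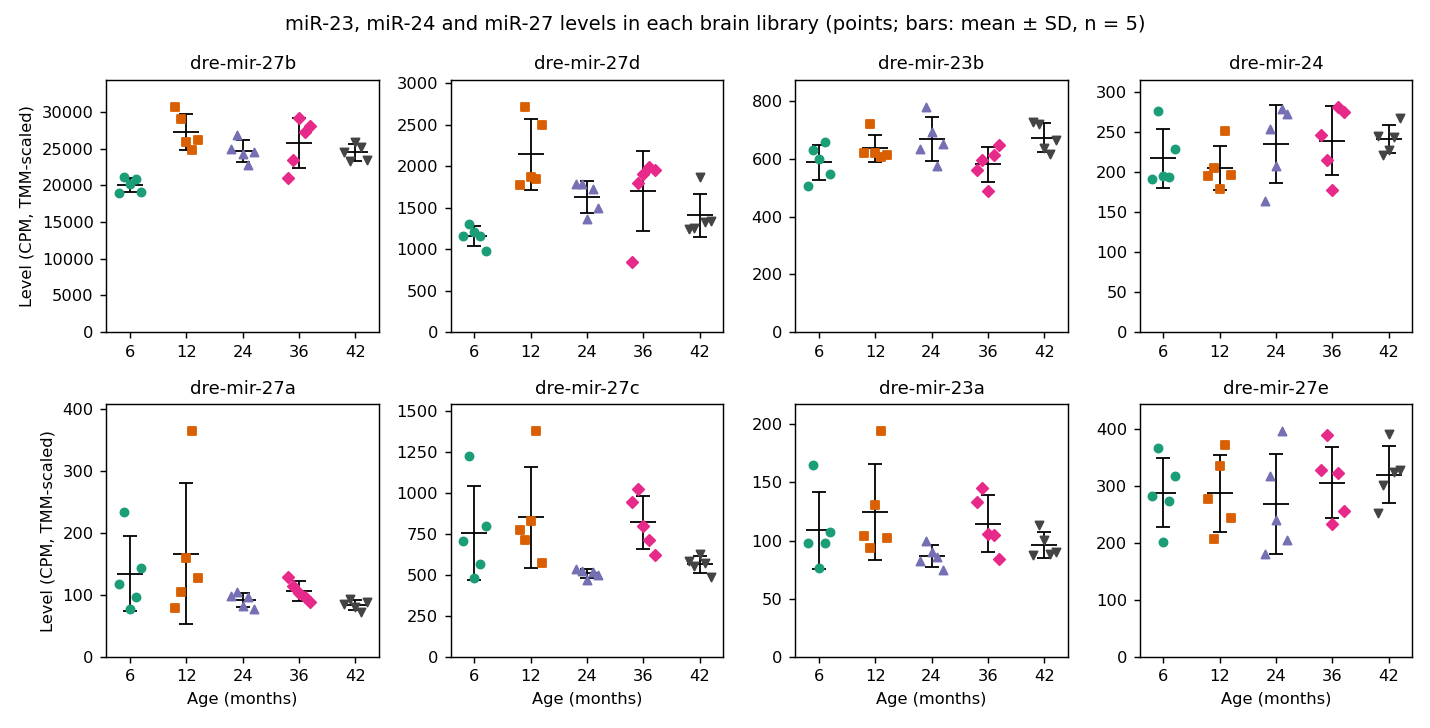
Level of each of the 8 members in every library by age, in CPM on a scale of its own per miRNA, with 1 point per library and the mean ± SD of 5 libraries. All 12-month libraries of dre-mir-27b and dre-mir-27d lie above all 6-month libraries. dre-mir-27a, dre-mir-27c and dre-mir-23a each have their highest library at 12 months and the next highest at 6 months.

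dre-mir-27b and dre-mir-27d varied together from library to library. Over the 25 libraries the Pearson correlation of their log2 CPM was 0.79, and 0.62 once each age was centred on its mean. Such correlations are descriptions: the libraries share ages and scaling, and these miR-27 forms may share reads. The miRNAs outside the family most like dre-mir-27b were dre-mir-338 (r = 0.84, 0.70 with ages centred), dre-mir-219 (0.73 and 0.73) and dre-mir-100 (0.70 and 0.61). For dre-mir-27d they were dre-mir-727 (0.70 and 0.73), dre-mir-338 (0.68 and 0.66) and dre-let-7h (0.64 and 0.48). miR-219 and miR-338 are known in mice as drivers of oligodendrocyte maturation and myelination, and these were the 2 miRNAs of the oligodendrocyte list.

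The summed level of dre-mir-219 and dre-mir-338 averaged 15243 CPM at 6 months (range 13799 to 17787), 20773 CPM at 12 (17274 to 22478), 18446 CPM at 24 (16263 to 20238), 21378 CPM at 36 (15011 to 23518) and 20441 CPM at 42 months (19283 to 22094). This sum was thus also lowest at 6 months. Its correlation with dre-mir-27b was 0.86 (0.74 with ages centred) and with dre-mir-27d 0.69 (0.66). The value for dre-mir-27b restates its likeness to these same miRNAs given above and adds nothing to it. dre-mir-338 was called higher at 12 months (log2 change 0.51, adjusted p = 0.00279), 24 months (0.33, adjusted p = 0.0290), 36 months (0.61, adjusted p = 2.49e-04) and 42 months (0.49, adjusted p = 0.00199) against 6 months in edgeR's quasi-likelihood test. dre-mir-219 was not called at any of them, with 0.29 at 12 against 6 months (adjusted p = 0.0640). Whether the share of oligodendrocytes or their products in the tissue had a part in the level of dre-mir-27b was not tested. In whole tissue, fewer cells of a type and less RNA per cell cannot be told apart.

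The same pair of miR-27 forms was low where epithelial miRNAs were high. dre-mir-27b correlated with the summed miR-200 family at r = -0.68 (-0.72 with ages centred) and dre-mir-27d at -0.55 (-0.65). At 6 months, replicates 1 and 5 held 8628 and 7521 CPM of epithelial miRNAs and had the lowest dre-mir-27b of their age, 18946 and 19143 CPM. At 36 months, replicate 1 held 8463 CPM of epithelial miRNAs, had 21059.9 CPM of dre-mir-27b and 847 CPM of dre-mir-27d, and its oligodendrocyte miRNAs summed to 15011 CPM. Its values of dre-mir-27b, dre-mir-27d and oligodendrocyte miRNAs were the lowest of the 36-month libraries. Without the epithelium-rich libraries, 2 libraries remained at 6 months and 2 at 12 months. The changes at 12 against 6 months were then 0.53 for dre-mir-27b and 0.92 for dre-mir-27d. The calls of both at 24 against 6 months were lost (adjusted p = 0.0650 and 0.140, edgeR's quasi-likelihood test). The part of epithelial RNA in these levels was not tested. Red blood cell miRNAs, dre-mir-144 and dre-mir-451, averaged 1710, 716, 887, 780 and 684 CPM summed at 6, 12, 24, 36 and 42 months. Their correlation with dre-mir-27b was -0.73, and -0.40 with ages centred. Their part in the level of dre-mir-27b was not tested.

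dre-mir-27c, dre-mir-27a and dre-mir-23a made up another set, each highest in replicate 4 of 12 months and next in replicate 2 of 6 months. For dre-mir-27c and dre-mir-23a, replicates 2 and 1 of 36 months followed. dre-mir-27c had 704, 1225, 484, 565 and 801 CPM at 6 months, 773, 711, 830.4, 1377 and 570.2 CPM at 12 months and 536, 524, 469, 518 and 501 CPM at 24 months. At 36 months it had 943, 1023, 801, 716 and 624 CPM, and at 42 months 582, 553, 628, 573 and 484 CPM. The 24-month libraries lay close together and wholly below the 12-month ones, while the ranges of 24 and 6 months overlapped. By mean the order was 12 months (852 ± 309 CPM), 36 months (822 ± 163 CPM), 6 months (756 ± 289.6 CPM), 42 months (564 ± 52.5 CPM) and 24 months (509.6 ± 26.0 CPM; SD, n = 5 each), with overlapping ranges between all neighbours.

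In edgeR's quasi-likelihood test dre-mir-27c was lower at 24 than at 12 months by a log2 change of -0.74 (SE 0.22, adjusted p = 0.0298), in all 25 pairs. It was also called lower at 24 than at 6 months, at -0.57 (SE 0.22, adjusted p = 0.0495). At 42 months the changes were -0.60 against 12 months (adjusted p = 0.0624) and -0.42 against 6 months (adjusted p = 0.129), and at 12 against 6 months the change was 0.17 (SE 0.22, adjusted p = 0.567). The calls were near the threshold. The call at 24 against 12 months ended without replicate 3 or 4 of 12 months or replicate 2, 3 or 5 of 24 months, with an adjusted p of up to 0.119. The change was -0.50 without replicate 4 of 12 months and between -0.76 and -0.71 in the other 4 cases. The call at 24 against 6 months ended in 19 of 25 cases, among them each 24-month library and replicates 1, 2 and 5 of 6 months. The change was then -0.32 without replicate 2 of 6 months (adjusted p = 0.230) and between -0.59 and -0.54 in the other 18 cases. At 42 against 12 months dre-mir-27c was called without replicate 2 or 3 of 6 months or replicate 5 of 12 months (adjusted p = 0.0306 to 0.0487). Without the epithelium-rich libraries the changes were -0.54 at 24 against 12 months (adjusted p = 0.101) and -0.05 at 24 against 6 months (adjusted p = 0.843). They were -0.36 at 42 against 12 months (adjusted p = 0.288) and 0.13 at 42 against 6 months (adjusted p = 0.628). In that fit dre-mir-27c was called higher at 36 than at 6 months, at 0.61 (adjusted p = 0.0214).

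dre-mir-27a had 118, 233, 77.9, 97.5 and 143 CPM at 6 months, 78.8, 104.4, 159, 364 and 128 CPM at 12 months and 97.8, 105, 81.4, 97.3 and 77.2 CPM at 24 months. At 36 months it had 129, 114, 103, 97.3 and 87.9 CPM, and at 42 months 85.8, 93.3, 81.0, 72.8 and 88.5 CPM. Replicate 2 of 6 months and replicate 4 of 12 months stood above all other libraries, and every pair of ages overlapped. The means were 134 ± 60.7 CPM at 6 months, 167 ± 114 CPM at 12, 91.7 ± 11.8 CPM at 24, 106 ± 16.0 CPM at 36 and 84.3 ± 7.81 CPM at 42 months (SD, n = 5 each), so that 12 months stood first, followed by 6, 36, 24 and 42 months. The slope with age was -0.26 log2 units per year (SE 0.09, adjusted p = 0.0361, edgeR's quasi-likelihood test), and the change at 42 against 12 months was -0.99 (SE 0.31, adjusted p = 0.0359, higher in 4 of 25 pairs). Neither held without the epithelium-rich libraries, where the slope was 0.01 (adjusted p = 0.950) and the change -0.09 (adjusted p = 0.887). Without replicate 4 of 12 months alone the change at 42 against 12 months was -0.48 (adjusted p = 0.210), and that call also ended without replicate 3 of 12 months or replicate 1, 3, 4 or 5 of 42 months, at changes of -0.996 to -0.929 (adjusted p up to 0.0885). The call of the slope ended without replicate 2 of 6 months (adjusted p = 0.0987), replicate 5 of 6 months, 3 of 12 months, 5 of 36 months or 1, 3, 4 or 5 of 42 months (adjusted p up to 0.0613). At 42 against 6 months the change of -0.67 was not called (SE 0.31, adjusted p = 0.0945), but it was without replicate 4 of 12 months (adjusted p = 0.0238). At 24 and 36 against 12 months the changes were -0.86 (adjusted p = 0.0744) and -0.65 (adjusted p = 0.217). The change at 24 months was called without replicate 2 of 6 months or replicate 1 or 2 of 12 months (adjusted p = 0.0215 to 0.0493). It was also called with library totals (-0.99, adjusted p = 0.0431). Without the epithelium-rich libraries it was -7.18e-04 (adjusted p = 0.997), and at 36 months 0.16 (adjusted p = 0.806). For dre-mir-27a the change at 42 against 6 months was then -0.03 (adjusted p = 0.927). Its call for any difference between ages (adjusted p = 0.0494) was lost in 20 of 25 cases when 1 library was left out, all but replicates 2, 3 and 4 of 6 months and 1 and 2 of 12 months (adjusted p up to 0.0876), and without the epithelium-rich libraries its adjusted p was 0.572.

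dre-mir-23a averaged 109 ± 33.3 CPM at 6 months, 125 ± 41.1 CPM at 12, 86.5 ± 9.41 CPM at 24, 114 ± 24.6 CPM at 36 and 96.1 ± 11.1 CPM at 42 months (SD, n = 5 each). Its highest libraries were those of dre-mir-27a, replicate 2 of 6 months with 165 CPM and replicate 4 of 12 months with 194 CPM. It was called in none of the 9 comparisons, and its largest change was -0.53 at 24 against 12 months (SE 0.20, adjusted p = 0.0796, edgeR's quasi-likelihood test). With library totals that change was -0.66 and was called (adjusted p = 0.0431). Without the epithelium-rich libraries it was -0.19 (adjusted p = 0.648).

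Within this set the correlations over 25 libraries were 0.90 between dre-mir-23a and dre-mir-27c, 0.86 between dre-mir-23a and dre-mir-27a and 0.81 between dre-mir-27a and dre-mir-27c, and 0.88, 0.87 and 0.82 with ages centred. dre-mir-27e, described below, also correlated with the set. Its values were 0.62 with dre-mir-23a (0.70 with ages centred), 0.47 with dre-mir-27c (0.59) and 0.40 with dre-mir-27a (0.56). The set did not follow dre-mir-27b: the correlation of dre-mir-27a with it was -0.21 (-0.43 with ages centred). The summed skin miRNAs moved with the set, at r = 0.85 with dre-mir-27a (0.79 with ages centred), 0.70 with dre-mir-23a (0.66) and 0.67 with dre-mir-27c (0.53). The skin sum averaged 1402 CPM at 6 months (range 486 to 3432), 1993 CPM at 12 (334 to 5084), 294 CPM at 24 (139.7 to 655), 583 CPM at 36 (293 to 1155) and 245 CPM at 42 months (57.3 to 455). Its highest libraries were replicate 4 of 12 months and replicate 2 of 6 months, the same 2 that were highest in dre-mir-27a. All 3 skin miRNAs were called lower with age, at 24 and at 42 against 6 months and at 42 against 12 months. The sum of muscle miRNAs, 5 of 5 tested, correlated with dre-mir-27a at 0.78 (0.80 with ages centred), with dre-mir-23a at 0.54 (0.68) and with dre-mir-27c at 0.49 (0.67). Most of it was dre-mir-133a, on average 1262 of 1364 CPM at 6 months and 946 of 1008 CPM at 42 months. The sum of the miRNAs of leukocytes and microglia, 5 of 5 tested, correlated with dre-mir-27c at 0.67 (0.68), with dre-mir-23a at 0.64 (0.61) and with dre-mir-27a at 0.50 (0.53). Its largest part was dre-mir-150, on average 964 of 1627 CPM at 6 months and 844 of 1499 CPM at 42 months. The sum of the 6 neuron miRNAs correlated negatively with dre-mir-27a at -0.61 (-0.59), dre-mir-23a at -0.50 (-0.58) and dre-mir-27c at -0.37 (-0.37). No marker of skin, of muscle or of leukocytes and microglia was at 0 in any library. The muscle sum ranged between 880 and 2138 CPM over the libraries, and the sum of leukocytes and microglia between 1111 and 2662 CPM. The part of RNA from skin, muscle, leukocytes or microglia in the level of the 3 members was not tested. The 7 epithelium-rich libraries were chosen on epithelial and skin miRNAs. They were also the 7 highest of all 25 libraries in dre-mir-27a. Among them it ranged between 118 CPM in replicate 1 of 6 months and 364 CPM in replicate 4 of 12 months. The next library was replicate 2 of 36 months with 114 CPM. Its mean level is therefore lower without them, and why these libraries coincide was not tested.

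The miRNAs most like dre-mir-27a were dre-mir-199 (r = 0.85), dre-mir-460 (0.84) and dre-mir-205 (0.84), the last of which is in the skin list. dre-mir-199 is in the list of mural and mesenchymal cells, whose sum correlated with dre-mir-27a at 0.35 (0.34 with ages centred). Most of that sum was dre-mir-143, on average 12617 of 14779 CPM at 6 months and 11877 of 12598 CPM at 42 months. Within the list, dre-mir-199 and dre-mir-214 were called lower with age, and dre-mir-143 and dre-mir-145 were not called. dre-mir-27c was most like dre-mir-142a (0.76), which is in the list of leukocytes and microglia, dre-mir-462 (0.75) and dre-mir-460 (0.73). dre-mir-23a was most like dre-mir-499 (0.73), found within myosin genes in mammals, dre-mir-1788 (0.70) and dre-mir-460 (0.70). dre-mir-460 was thus among the 3 closest for each member of the set.

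**Figure D3:**
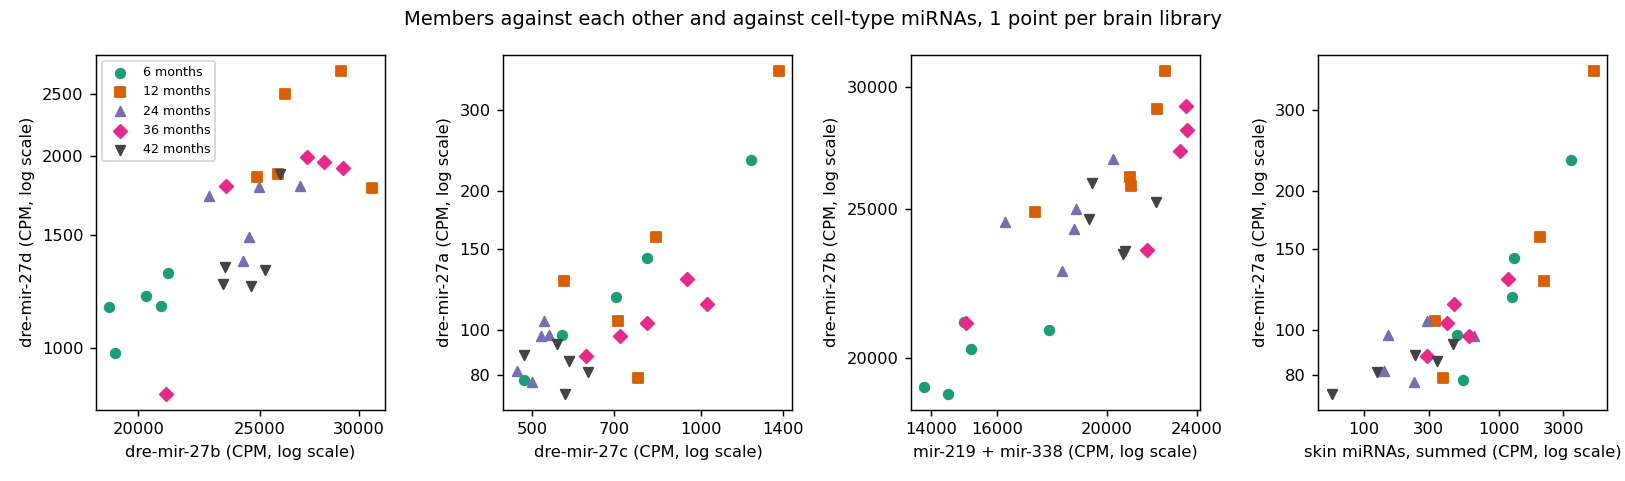
Levels in CPM on log axes with 1 point per library, coloured by age: dre-mir-27d against dre-mir-27b, dre-mir-27a against dre-mir-27c, dre-mir-27b against the sum of dre-mir-219 and dre-mir-338, and dre-mir-27a against the sum of 3 skin miRNAs. The 6-month libraries sit between 18946 and 21103 CPM of dre-mir-27b, at its low end, and the highest point of dre-mir-27a is also the highest in skin miRNAs.

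dre-mir-23b, dre-mir-24 and dre-mir-27e were called in none of the 9 comparisons. dre-mir-23b, the main miR-23 form in these counts, had 506, 630.2, 600.1, 657 and 547 CPM at 6 months, 619, 721, 621, 608 and 615 CPM at 12 months and 634, 780.5, 695, 576 and 652 CPM at 24 months. It had 560.1, 595, 488, 615 and 648 CPM at 36 months and 727, 722, 637, 618 and 664 CPM at 42 months. All ages overlapped, and its spread within an age was small: the SD of its log2 CPM was 0.14, beside a median of 0.25 over the 197 miRNAs. By mean the order was 42 months (674 ± 49.3 CPM), 24 months (668 ± 76.1 CPM), 12 months (637 ± 47.3 CPM), 6 months (588 ± 61.4 CPM) and 36 months (581 ± 61.2 CPM; SD, n = 5 each). Its largest change was 0.20 at 42 against 6 months (SE 0.09, adjusted p = 0.0989, edgeR's quasi-likelihood test). It was called without replicate 2 of 24 months (adjusted p = 0.0412) or replicate 3 of 36 months (adjusted p = 0.0394). Without the epithelium-rich libraries it was 0.12 (adjusted p = 0.608). With all libraries the change at 12 against 6 months was 0.11 (SE 0.09, adjusted p = 0.372). The miRNAs most like dre-mir-23b were dre-mir-126b (r = 0.54), dre-mir-122 (0.52) and dre-mir-126a (0.51), of which the 2 miR-126 forms are the endothelial list.

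dre-mir-24 averaged 217 ± 36.6 CPM at 6 months, 205 ± 27.3 CPM at 12, 235 ± 48.4 CPM at 24, 239 ± 43.1 CPM at 36 and 241 ± 17.8 CPM at 42 months (SD, n = 5 each). The largest of its changes was 0.23 at 42 against 12 months (SE 0.15, adjusted p = 0.313, edgeR's quasi-likelihood test), and its slope was 0.07 log2 units per year (SE 0.04, adjusted p = 0.205). dre-mir-27e averaged 289 ± 60.6, 287 ± 67.3, 268 ± 88.1, 306 ± 62.0 and 320.1 ± 50.3 CPM at 6, 12, 24, 36 and 42 months, and its changes lay between -0.11 and 0.16 (SE 0.21 each). Both overlapped between all ages. The member most like dre-mir-24 was dre-mir-27e, at r = 0.48 (0.49 with ages centred). The member most like dre-mir-27e was dre-mir-23a, at 0.62 (0.70 with ages centred). Outside the family dre-mir-24 was most like dre-mir-26a (0.63), dre-mir-26b (0.59) and dre-mir-19b (0.58), and dre-mir-27e like dre-mir-152 (0.58), dre-mir-499 (0.58) and dre-mir-135a (0.54).

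Counts named for neighbours on the chromosome did not always vary together. dre-mir-23b and dre-mir-27d lie in the same cluster, and their correlation was 0.19 (0.15 with ages centred). The cluster of dre-mir-27b also holds a miR-23b locus, mir23b-2, which has no row of its own. Reads counted as dre-mir-23b may therefore come from either cluster. The correlation of dre-mir-23b with dre-mir-27b was 0.30 (0.27 with ages centred). At 12 against 6 months dre-mir-27d had a log2 change of 0.88 and dre-mir-23b one of 0.11. The third hairpin of that cluster, copy 24-1, correlated with dre-mir-27d at 0.25. Copy 24-3, which lies beside dre-mir-27b, correlated with it at 0.23. Reads of the mir-24 copies may be shared as well, so that these low values do not show whether the loci of a cluster were transcribed together. In the other clusters, copy 23a-3 correlated at 0.82 with its neighbour dre-mir-27a and at 0.88 with dre-mir-27c, which lies in a different cluster. Copies 23a-2 and 23a-4 correlated at 0.83 and 0.92 with their neighbour dre-mir-27c, and at 0.85 and 0.86 with dre-mir-27a. Copy 23a-1 correlated at 0.65 with its neighbour dre-mir-27e and at 0.86 with dre-mir-27c. The copies of mir-23a held 29.1% (23a-1), 23.7% (23a-2), 23.5% (23a-3) and 23.8% (23a-4) of its counts, near an equal split, so that their separate counts carry little about each locus. Copy 24-3 held 40.4% of dre-mir-24, copy 24-1 held 20.9%, and copies 24-2, 24-4 and 24-5 held 12.8%, 13.1% and 12.7%.

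**Figure D4:**
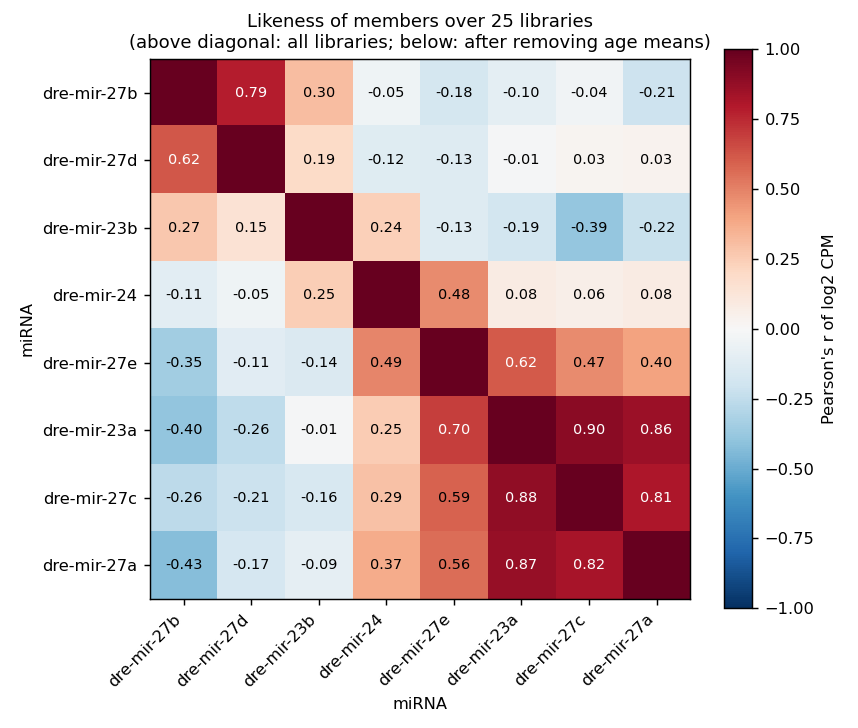
Pearson correlation of log2 CPM between each pair of the 8 members over 25 libraries, above the diagonal as measured and below it with each age centred on its mean. Above the diagonal, dre-mir-23a, dre-mir-27a and dre-mir-27c correlate at 0.81 to 0.90, dre-mir-27b and dre-mir-27d at 0.79, and dre-mir-23b with its cluster neighbour dre-mir-27d at 0.19.

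Other miRNAs linked to blood vessels were set beside the members at 12 months, the age with the flk reporter. dre-mir-126a and dre-mir-126b, which mark endothelium, were not called at 12 against 6 months, and their sum averaged 5515 CPM at 12 months (range 4989 to 6458), against 6302 CPM at 6 months (5418 to 6992). For dre-mir-126a the change was -0.20 (adjusted p = 0.0926, edgeR's quasi-likelihood test), and it was called higher at 42 than at 12 months, at 0.28 (adjusted p = 0.0282). The correlation of the endothelial sum with dre-mir-27b was -0.27, and 0.06 with ages centred. Over the 8 members it lay between -0.32 for dre-mir-27c and 0.53 for dre-mir-23b (0.59 with ages centred). Of 15 other vessel-linked miRNAs, 4 were called higher and 0 lower at 12 against 6 months, where 7.11% of all 197 tested miRNAs were called higher. The median change was 0.24 over the 15 and 0.02 over all 197. The list was drawn up with earlier results of these data known, so that its counts and median are descriptions only. Whether vessels or the flk reporter had a part in them was not tested. The sum of the 15 correlated with the 8 members at -0.71 (dre-mir-27e, -0.76 with ages centred) to 0.50 (dre-mir-27b, 0.42). The 4 were dre-mir-222b (1.17, adjusted p = 0.0219), which in mammals belongs to a pair that restrains endothelial growth, dre-mir-130b (0.31, adjusted p = 0.0191), dre-mir-130c (0.34, adjusted p = 0.0103) and dre-mir-92a (0.24, adjusted p = 0.0305), a member of the miR-17-92 cluster known in mice for limiting vessel growth. Other members of that cluster in the list were not called at 12 against 6 months. dre-mir-19a changed by -0.37 (adjusted p = 0.0593), dre-mir-17a by -0.20 and dre-mir-18a by -0.01. dre-mir-20a averaged 217 CPM at 12 months, against 225 CPM at 6 months. dre-mir-221 (0.46, adjusted p = 0.163) and dre-mir-222a (0.40, adjusted p = 0.155) were also not called at 12 against 6 months. They averaged 13898 and 18788 CPM at 12 months, against 117 CPM for dre-mir-222b. At 24 against 12 months 1 of the 15 was called lower, dre-mir-130b, and at 42 against 12 months dre-mir-130b and dre-mir-130c were. dre-mir-130b averaged 767 ± 51.5 CPM at 12 months, against 617 ± 37.0 CPM at 6 months (SD, n = 5 each). At 24, 36 and 42 against 6 months 1, 2 and 1 of the 15 were called higher and 0, 1 and 0 lower, where 13.7%, 8.12% and 14.2% of all tested miRNAs were called higher. Among these, dre-mir-222b was called higher at 36 months (1.82, adjusted p = 4.68e-04) and at 42 months (1.03, adjusted p = 0.0205). dre-mir-92a was called higher at 36 months (0.22, adjusted p = 0.0427). Calls of these 2 were thus not confined to 12 months.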

How the data were processed

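Small RNA of 25 brain libraries had been prepared with Illumina's TruSeq small RNA kit, per the labels' protocols. Per the submitters' processing notes, the tools were SAMtools 1.3.1-9, BWA 0.7.12-r1039, Trimmomatic 0.36 and CASAVA 1.8.4, listed with no role or order. Not given in the sources used here were the genome build, the miRNA annotation, the counter and the treatment of reads with several matches. The authors deposited 1 raw count per hairpin and library, and all values were whole numbers. Columns not used numbered 0.

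Hairpin copies were summed by name. filterByExpr (count minimum 10, total minimum 15) kept 197 miRNAs and left out 20. The test was the robust quasi-likelihood F test of edgeR 4.0.16 under R 4.3.3, on all 25 libraries with TMM factors, with Benjamini-Hochberg adjustment over the 197 within each of 9 comparisons and a call at an adjusted p under 0.05. The alternatives used DESeq2 1.42.0 and limma 3.58.1. Standard errors were approximated from the F statistic. CPM are relative to the TMM-adjusted library size, and log2 CPM used a prior count of 2. Beside each member, the 3 miRNAs outside the family with the highest Pearson correlation over the 25 libraries are named. The fits were tested on simulated data.

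The members, lists and tests were chosen with earlier results of these data known, and the alternative without epithelium-rich libraries (either sum above 2000 CPM of the library total) was chosen after seeing the data. Replicates were numbered in order of deposit and pair nothing across ages. Among 50 replicate pairs 0 were identical, and the smallest chi-square per degree of freedom was 116. Nothing says that replicates came from separate animals, so that the p-values only weigh differences against the spread of these samples, which may be technical. Titles of 6-month libraries hold 2 numbers each and others hold 1, with no stated meaning.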

Additional observations from a re-analysis of the deposited data

Results flagged for a closer look

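4 of 40 groups of 5 libraries had 1 library far from the others, by the gap to its nearest neighbour as a share of the whole range. Chance gives about 1 in 20 such groups. dre-mir-23b in replicate 2 of 12 months was the highest of its age, with 721 CPM and the next at 621 CPM (gap 0.889 of the range). dre-mir-27a in replicate 4 of 12 months was the highest, with 364 CPM and the next at 159 CPM (0.718). This library also had the highest skin miRNAs, 5084 CPM. dre-mir-27d in replicate 1 of 36 months was the lowest, with 847 CPM and the next at 1793 CPM (0.826), in the library with 8463 CPM of epithelial miRNAs. dre-mir-27d in replicate 3 of 42 months was the highest, with 1873 CPM and the next at 1337 CPM (0.857).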

How the results depend on the processing

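The calls of dre-mir-27b against 6 months, of dre-mir-27d at 12 against 6 months and of dre-mir-27b, dre-mir-27c and dre-mir-27d for any difference held when any single library was left out. Leaving out 1 library gave 72 or more miRNAs called for any difference and 3 to 4 members, 30 to 60 and 0 to 1 for the trend, 19 to 66 and 2 at 12 against 6 months, 24 to 66 and 1 to 3 at 24 against 6, 23 to 47 and 1 to 2 at 36 against 6, 46 to 80 and 1 to 2 at 42 against 6, 13 to 30 and 0 to 2 at 24 against 12, 5 to 13 and 0 at 36 against 12, and 17 to 41 and 0 to 3 at 42 against 12 months. The counts of all miRNAs without such omission were 94, 42, 28, 63, 31, 70, 20, 8 and 33 in the same order. 6 of the 25 omissions ended the call of dre-mir-27a at 42 against 12 months and 8 that of its slope.

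Members called changed to 1 at 36 against 6 months with DESeq2 size factors, each hairpin row alone or a fit of the 2 ages alone. With library totals they were 1 at 24 against 6, 1 at 36 against 6 and 4 at 24 against 12 months, where dre-mir-27b (-0.28, adjusted p = 0.0207), dre-mir-27a (-0.99, adjusted p = 0.0431) and dre-mir-23a (-0.66, adjusted p = 0.0431) were then called lower. With no filter they were 2 at 42 against 6 months. The DESeq2 test called 49 miRNAs at 12 against 6, 38 with 2 members at 24 against 12 and 20 at 36 against 12 months. limma-voom called 61 for any difference, with members at 0 for the trend, 1 at 24 against 6, 1 at 36 against 6 and 1 at 42 against 12 months. Hairpin rows alone gave 65 in the trend. A fit of the 2 ages alone called 0 with 0 members at 24 against 12, 0 at 36 against 12, and 17 with 1 member at 42 against 12 months. The trend without 6-month libraries called 20 with 0 members and without 42-month libraries 11 with 0 members. Without 12-month libraries the slope of dre-mir-27a was -0.18 (adjusted p = 0.0607).

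Without the epithelium-rich libraries 25 miRNAs were called for any difference, 11 with 0 members for the trend, 10 at 12 against 6, 9 with 0 members at 24 against 6, 24 at 42 against 6, 0 with 0 members at 24 against 12, 0 at 36 against 12 and 1 with 0 members at 42 against 12 months. The slope of dre-mir-27a then turned to 0.0075, and 7 libraries fewer were fitted. The cause of these changes, the fewer libraries included, was not tested.

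Library totals moved the median log2 change of all miRNAs from 0.04 to -0.14 at 24 against 6 and from 0.01 to -0.12 at 24 against 12 months. Higher and lower calls were then 8 and 54 at 24 against 6 months, where TMM gave 27 and 36. They were 11 and 18 (TMM 14 and 14) at 12 against 6, 12 and 26 (16 and 15) at 36 against 6, 16 and 52 (28 and 42) at 42 against 6, 2 and 28 (8 and 12) at 24 against 12, 2 and 9 (3 and 5) at 36 against 12 months, and 10 and 38 (15 and 27) in the trend. No paired analysis was possible because replicate numbers come from the order of deposit alone. Line cannot be told apart from age except at 24 against 6 months, where no transgene is named at either age. The form of the titles differs between the 6-month libraries and all others. What it stands for cannot be told apart from age in any comparison against 6 months. The order of handling, if it followed age, cannot be told apart from age.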
